A study of Mus musculus with 4 samples.

Results

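The 46 genes described here encode the machinery that brings newly made secretory and membrane proteins into the endoplasmic reticulum (ER), folds and glycosylates them, and sends them on or back. The rule takes the genes of the deposited count table that carry these symbols and uses no measured value, although the list was drawn up with earlier results of these data known. They make up 46 of 21470 genes in it. Of the 46 names, 45 were found by symbol and 1, Ero1l, by its Ensembl gene identifier (ENSMUSG00000021831), since the table lists it under the later symbol Ero1a. A low-count filter kept 45 of the 46 members for testing. The exception was Srp54a, whose near-identical copies can share reads and which had 2 counts over all E4 ICM libraries, 2 over all E4 TE libraries and 0 at D10.

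RNA was measured in 20 libraries of wild-type (WT) mouse embryos from a B6D2F1 male crossed with an ICR female, in 4 groups of 5 replicates. The groups are the embryonic side of the embryo (inner cell mass, ICM) and its extra-embryonic side (trophectoderm, TE), each at the times labelled E4 and D10, and the series compares gene expression before and after embryonic diapause, the pause of the blastocyst before implantation. The labels conflict on E4: the protocol speaks of diapause embryos for every sample, the title of a comparison of before with after, and the deposited barcode list gives D10 as day 6 and E4 as the time before. The barcode list also gives litters. Replicates 1 to 5 came from litters B, C, M, N and O at E4 and from litters E, F, G, Q and S at D10, with ICM and TE of the same number from the same litter. At E4 the embryos of replicates 1 and 2 still had a zona pellucida, the coat of the early embryo, and those of replicates 3, 4 and 5 did not, nor did any at D10. The labels do not say whether a library is 1 embryo or a pool. The p-values rest on the spread between libraries of different litters, of which a part may be technical. Since replicates of a group were mixed before amplification, pool and group cannot be told apart.

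A secreted protein begins with a signal peptide, which the signal recognition particle binds on the ribosome and brings to its receptor on the ER membrane. The chain passes through the Sec61 channel, the translocon, while signal peptidase removes the signal peptide and oligosaccharyl transferase attaches a preformed glycan to asparagine residues. Protein disulfide isomerases and the lectin chaperones calnexin and calreticulin then fold it. KDEL receptors return escaped ER residents from the Golgi, and cargo receptors such as Lman1 and Surf4 carry finished proteins towards it. In the blastocyst this route carries, among others, the basement membrane proteins that the primitive endoderm secretes, and the unfolded protein response adjusts the amount of folding machinery.

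Libraries held 144276 to 1010354 counts, read at the 3′ end of transcripts. Levels are in CPM, which is a gene's count over its library's total on a common scale, with totals adjusted by the TMM factors of edgeR. A count of 0 allows up to 3 counts, which is between 2.97 and 20.8 CPM depending on depth. Intervals of this kind cover counting error only. The summed level of 8 epiblast markers was 1421 to 2688 CPM in E4 ICM and 581 to 998 CPM in D10 ICM, against 78.7 to 173 CPM in E4 TE and 57.4 to 117 CPM in D10 TE, where Sox2 had 0 counts. In TE the epiblast sum was mostly Zfp42, with means of 98.2 CPM at E4 and 69.3 CPM at D10. Zfp42 did not pass the edgeR test between the tissues at D10 (log2 -0.30). Trophectoderm markers summed to 6972 to 9540 CPM in TE but also to 2050 to 5373 CPM in ICM. Of the trophectoderm markers, Elf5 was higher in ICM than in TE at D10 (log2 1.20), and the others were lower there by the edgeR test. The 8 primitive endoderm markers summed to 1896 to 4200 CPM in E4 ICM, 7429 to 10430 CPM in D10 ICM, 1049 to 1456 CPM in E4 TE and 2663 to 3838 CPM in D10 TE. They did not move as 1 group. In ICM Sparc, Cubn, Dab2 and Lama1 rose, Gata6 fell (log2 -1.04), and Gata4, Sox17 and Pdgfra did not pass the edgeR test. The sum in TE was mostly Dab2, with means of 951.5 CPM at E4 and 2595 CPM at D10. Dab2 was lower in ICM than in TE at E4 (log2 -1.41). Gata4, Sox17, Pdgfra and Cubn had means of at most 8.125 CPM in TE. The 6 uterine markers in the table summed to 60.1 to 188 CPM in E4 ICM, 147 to 316 CPM in D10 ICM, 127 to 230.2 CPM in E4 TE and 429 to 568 CPM in D10 TE, mostly from Wfdc2, which rose in TE (log2 1.53, adjusted p = 0.000107). Muc1 went from a mean of 0.797 to 20.6 CPM in TE, while Ltf had 1 count over all libraries and 0 in TE, and 4 blood markers summed to 0 to 142 CPM, with 1 count for Ptprc. Because tissues were measured in bulk, fewer cells of a type and less RNA per cell cannot be told apart.

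Taken as 1 sum over the 46 members, D10 TE was the low group. The sum was 6937, 7159, 6861, 7073 and 6351 CPM in the 5 D10 TE libraries, and 8729, 8357, 8432, 9027 and 8106 CPM in those of E4 TE. In ICM it was 7944, 7300, 9659, 9094 and 7336 CPM at E4 and 9208, 9809, 8265, 9762 and 8433 CPM at D10. Every D10 TE library lay below every library of the other 3 groups. The share of all counts taken by the members was 0.517% to 0.699% in D10 TE, 0.742% to 0.894% in E4 TE, 0.724% to 1.03% in E4 ICM and 0.667% to 0.921% in D10 ICM, so on that unscaled measure D10 TE and D10 ICM overlapped. The library with the lowest share in each D10 tissue, TE replicate 5 and ICM replicate 3, also had the highest share of mitochondrial counts there, 17.1% and 18.9%, and the part of this in the sums was not tested. Nor was that of the uterine marker sum, which was highest in D10 TE.

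**Figure D1:**
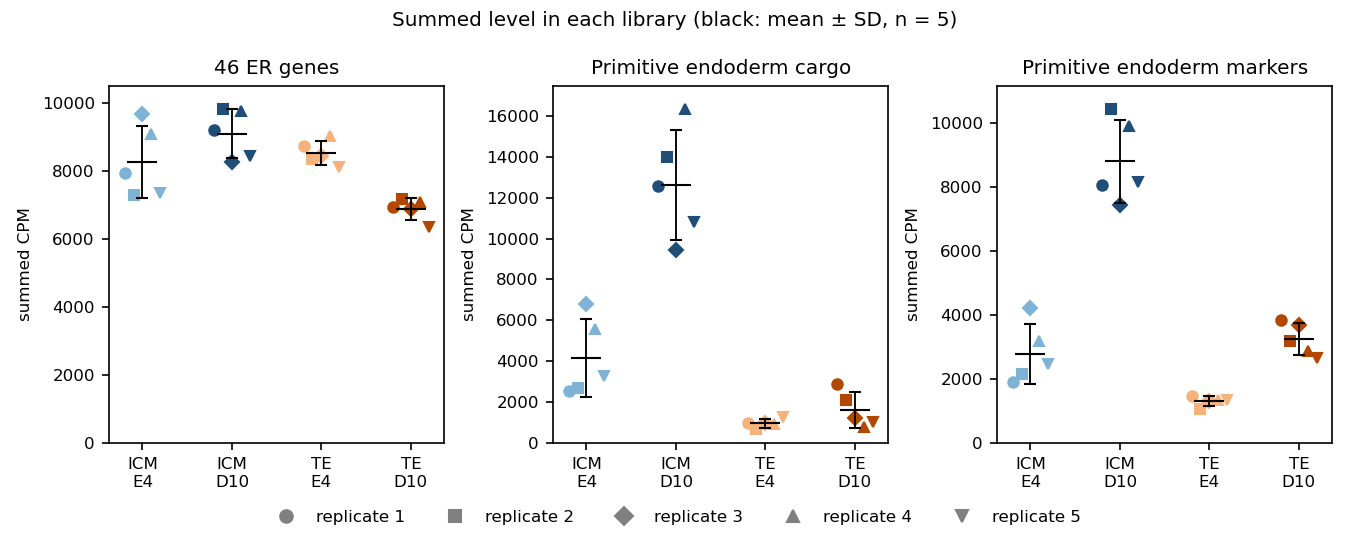
Summed CPM in each library of the 46 ER genes (left), of 18 genes for primitive endoderm cargo and its collagen enzymes (middle) and of 8 primitive endoderm markers (right), with 5 points per group and the black bar giving mean ± SD. The ER genes are lowest in TE at D10, at 6351 to 7159 CPM, while the cargo and marker sums are highest in ICM at D10. Single markers differ from their sum: Gata6 fell in ICM, and Dab2 makes up most of the marker sum in TE. Sparc and Lama1 are in both the cargo and the marker list.

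From E4 to D10, more members fell than rose in TE, and most passed in neither direction in either tissue. In TE, 11 of 45 fell (24.4%), against 9.89% of all 6943 genes tested that fell there, and 2 rose (4.44%), against 11.9% of all genes. In ICM 4 rose (8.89%), against 13.7% of all genes, 2 fell (4.44%), against 9.97%, and 39 did not pass the test. The median log2 change of the members was -0.35 in TE, beside 0.02 for all genes, and -0.07 in ICM, beside -0.003 for all genes. In TE 33 of the 45 changes were negative (3380 of all 6943 genes), and in ICM 23 of 45 (3481 of all 6943). The test throughout is the quasi-likelihood test of edgeR in 1 fit of all 4 groups, with Benjamini-Hochberg adjustment over all 6943 genes and a threshold of 0.05, and each change or difference is on the log2 scale with its standard error (SE) after ±.

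**Figure D2:**
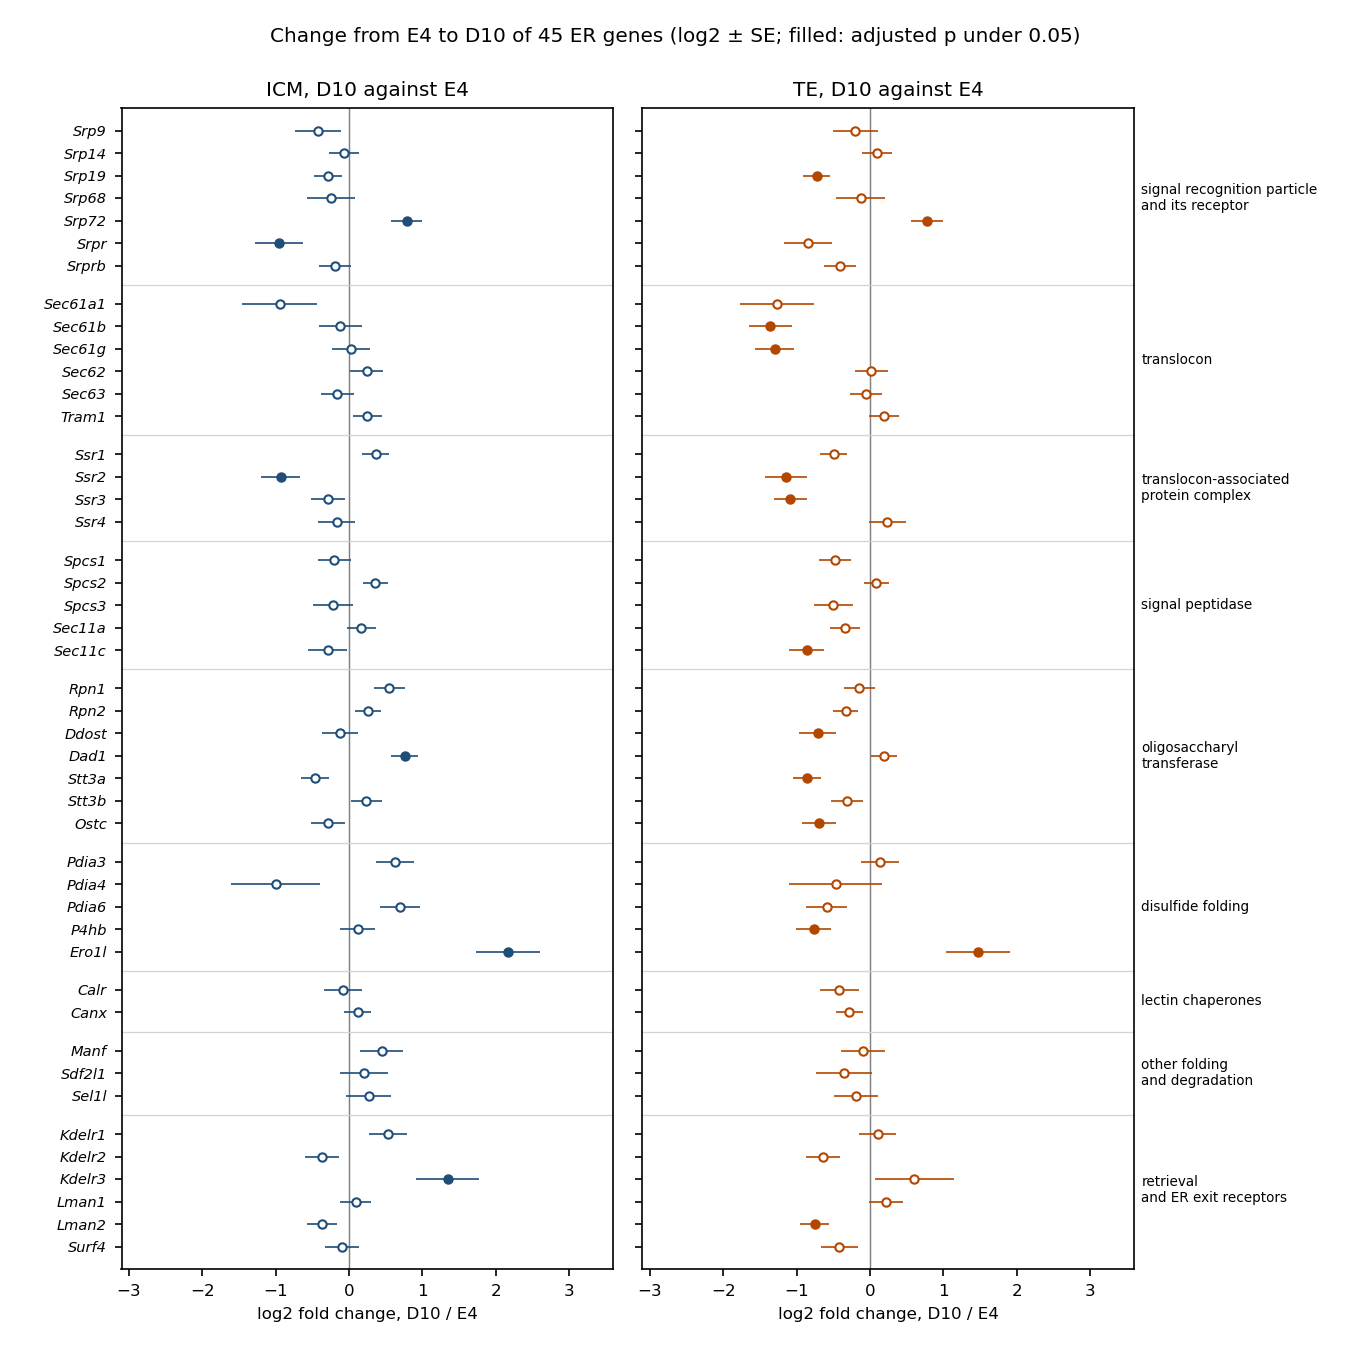
Log2 fold change from E4 to D10 (horizontal axis, ± SE) of the 45 members tested, in role order on the vertical axis, in ICM (left) and TE (right), with filled points for an adjusted p under 0.05. In TE 11 filled points lie below 0 and 2 above; in ICM 2 lie below and 4 above.

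Between the tissues, the members that passed at D10 were all higher in ICM, and at E4 they went both ways. At D10 11 of 45 members (24.4%) were higher in ICM than in TE, against 12.9% of all genes, and 0 were lower, against 12.6%; DESeq2 and limma voom also called 0 lower, and at an unadjusted p under 0.05 the count of lower members was 1. Of the 45 differences at D10, 40 were positive, where 51.1% of all genes were, with a median of 0.36 beside 0.01 for all genes. At E4 3 members were higher in ICM (6.67%, against 15.8% of all genes) and 2 lower (4.44%, against 15.4%), and the median was -0.09 beside 0.04. Whether the tissue difference changed from E4 to D10 is the interaction, which passed for 1 of 45 members. The comparison over time in TE and that of the tissues at D10 share the D10 TE libraries, so they are not separate evidence on those libraries.

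**Figure D3:**
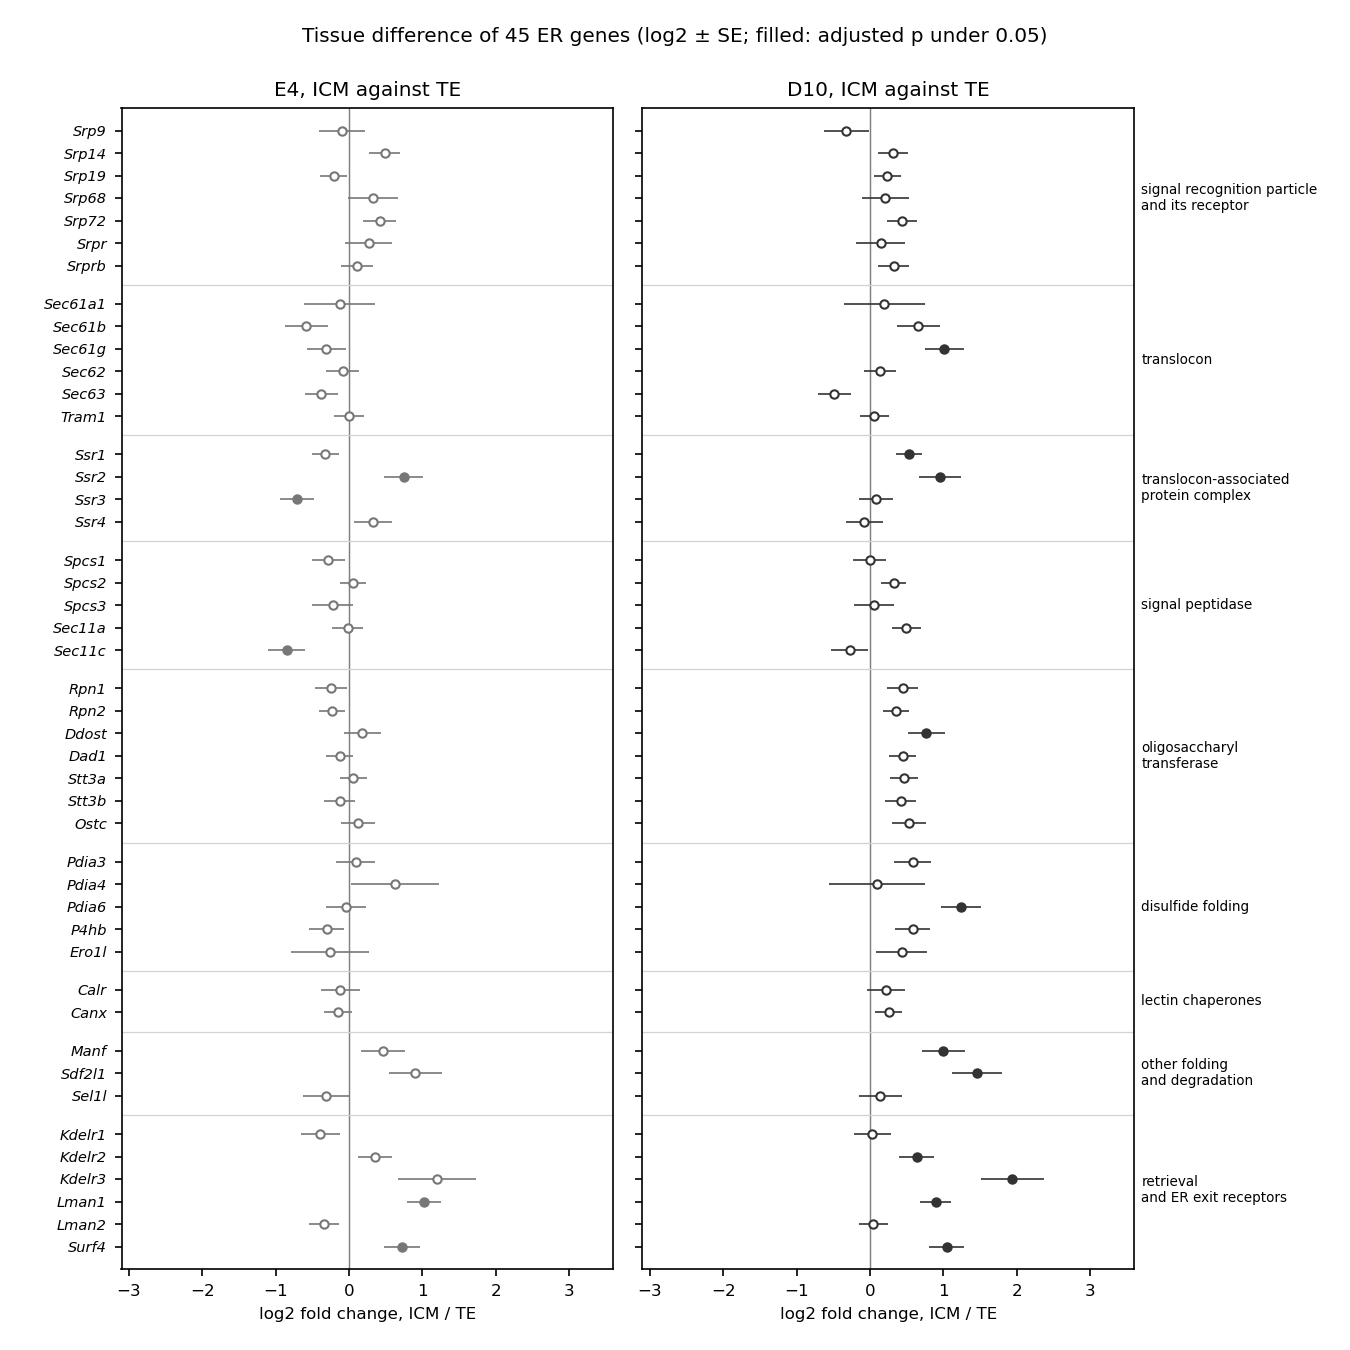
Log2 fold change of ICM over TE (horizontal axis, ± SE) of the same 45 members at E4 (left) and D10 (right), with filled points for an adjusted p under 0.05. At D10 all 11 filled points lie above 0, among them 4 of the 6 retrieval and exit receptors.

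The difference between the tissues in their change over time, ICM minus TE, was tested as an interaction. The member that passed was Sec61g (1 of 45, 2.22%, against 3.15% of all genes in that direction), and 0 passed in the other direction, against 1.83%; DESeq2 and limma voom also called 0 there, and 0 had an unadjusted p under 0.05. At an unadjusted p under 0.05, 9 members had a positive interaction, but all genes were not counted at that threshold. Of the 45 estimates 37 were positive, where 48.7% of all genes were, with a median of 0.40 beside -0.02 for all genes. For single members other than Sec61g, a change that passed in 1 tissue is therefore not shown to differ from that in the other. With the litter as a block 4 members passed: Sec61g, Sec61b (adjusted p = 0.0338), Pdia6 (adjusted p = 0.0122) and P4hb (adjusted p = 0.0498). The other settings gave 0 to 3, and leaving out 1 library 0 to 3.

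The signal recognition particle and its receptor are the first step, and their members did not move as 1 group. Srp72, which with Srp68 forms the large protein core of the particle (ENSMUSG00000036323, chr5:76974683-76999937 in GRCm38, as for all gene positions here), was counted at 101, 146, 188, 130.3 and 129 CPM in replicates 1 to 5 of E4 ICM and at 285, 204, 205, 265 and 260 CPM at D10, with no overlap. It rose in ICM (log2 0.79 ± 0.21, adjusted p = 0.00873). In TE its level was 97.8, 95.4, 131, 116 and 71.6 CPM at E4 and 173, 259, 142, 194 and 131 CPM at D10, where replicate 2 was highest and replicate 5 met the E4 range, and it rose (log2 0.77 ± 0.22, adjusted p = 0.012). Its interaction was 0.01 ± 0.32 (adjusted p = 0.998), so the difference between the tissues in the rise did not pass. The ICM call was lost with scaling by total counts only (adjusted p = 0.0663) and with the 2 zona litters of E4 removed (adjusted p = 0.0676), and the TE call without those litters (adjusted p = 0.0977) or without D10 TE replicate 2 (adjusted p = 0.0602).

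Other members of the particle and receptor gave lower values at D10. Srp19, which helps assemble the particle's RNA, was at 345, 191, 341, 283 and 351 CPM in E4 TE and 139, 202, 177, 169 and 224 CPM in D10 TE. It fell in TE (log2 -0.73 ± 0.19, adjusted p = 0.00609), although E4 replicate 2 lay among the D10 libraries, and was -0.28 ± 0.19 (adjusted p = 0.294) in ICM. Srpr, the alpha subunit of the receptor, was at 57.1, 94.0, 76.4, 74.4 and 90.3 CPM in E4 ICM and 33.3, 28.0, 38.8, 40.9 and 69.7 CPM in D10 ICM, where replicate 5 met the E4 range. It fell in ICM (log2 -0.96 ± 0.33, adjusted p = 0.0341), and that call was lost in 10 of 29 alternatives (adjusted p up to 0.244), among them leaving out E4 ICM library 2, 3, 4 or 5 or D10 ICM library 1, 2, 3 or 4 (adjusted p up to 0.12). Srpr shares 31009 bases of its annotated span with Fam118b on the opposite strand, and since strand use in counting is not given, reads of the pair may not be told apart. Srp9, Srp14, Srp68 and Srprb passed in no comparison.

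The small subunits of the translocon fell in TE. Sec61b, the beta subunit of the channel (ENSMUSG00000053317, chr4:47474658-47483242), was at 189.9, 129, 263, 193 and 279 CPM in the E4 TE libraries and at 65.7, 44.9, 92.3, 85.6 and 123 CPM at D10. Every D10 TE library lay below every E4 TE library, and Sec61b fell (log2 -1.36 ± 0.29, adjusted p = 0.00142). In ICM it was at 165, 62.7, 178, 190.2 and 103 CPM at E4 and 90.3, 138, 139, 169 and 92.9 CPM at D10, with overlapping groups and a change of -0.12 ± 0.29 (adjusted p = 0.808). Its interaction was 1.24 ± 0.41 (adjusted p = 0.0824).

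Sec61g, the gamma subunit (ENSMUSG00000078974, chr11:16500530-16508484), followed the same pattern. It was at 173, 129, 183, 134 and 107 CPM in E4 TE and 51.1, 44.9, 70.2, 62.9 and 68.3 CPM in D10 TE, with no overlap, and fell (log2 -1.30 ± 0.27, adjusted p = 0.000983). In ICM it was at 114, 70.5, 134, 155 and 112 CPM at E4 and 66.6, 145, 72.0, 110.2 and 199.7 CPM at D10, where replicate 5 was highest and replicate 1 lowest. The ICM change was 0.03 ± 0.26 (adjusted p = 0.96), and the interaction was 1.32 ± 0.38 (adjusted p = 0.0376). At D10 Sec61g was higher in ICM than in TE (log2 1.02 ± 0.27, adjusted p = 0.00586), with ICM replicate 1 within the TE range. The interaction call was lost in 11 of 29 alternatives (adjusted p up to 0.163), which include leaving out library 2 or 5 of E4 ICM, 1 or 3 of E4 TE, 2 or 5 of D10 ICM, and 1 or 2 of D10 TE (adjusted p 0.0533 to 0.0659), and the D10 call when all libraries were thinned to the smallest total (adjusted p = 0.0785). The TE falls of Sec61b and Sec61g passed in all 29 alternatives.

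The pore subunit gave too few counts for a firm statement. Sec61a1 had 44 counts in E4 TE and 33 in D10 TE, with 51 and 28 in ICM, and its change in TE was -1.27 ± 0.50 (adjusted p = 0.0705). It passed in TE without E4 TE replicate 3 or without D10 ICM replicate 5 (adjusted p 0.0221 to 0.0294), and in ICM with limma voom or without D10 ICM replicate 5 (adjusted p 0.0165 to 0.0173). Sec62 and Sec63, which serve chains that arrive after translation, and Tram1, which helps some chains enter, passed in no comparison. The Sec63 mean was 129.9 ± 28.8 CPM in E4 TE and 123 ± 25.7 CPM in D10 TE.

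The translocon-associated protein complex, which sits beside the channel and helps many chains through, had different patterns in its 4 subunits. Ssr2, the beta subunit, fell in both tissues. In ICM it was at 178, 120.1, 158, 103 and 146 CPM at E4 and 90.3, 57.7, 72.0, 98.7 and 37.2 CPM at D10, and in TE at 97.8, 78.8, 68.2, 73.7 and 107 CPM at E4 and 25.6, 67.3, 30.1, 31.4 and 32.8 CPM at D10, where replicate 2 was about as high as the lowest E4 library. The groups did not overlap over time in either tissue. The changes were -0.93 ± 0.26 (adjusted p = 0.0122) in ICM and -1.14 ± 0.29 (adjusted p = 0.00538) in TE, with an interaction of 0.21 ± 0.38 (adjusted p = 0.827). Ssr2 was also higher in ICM than in TE at E4 (log2 0.75 ± 0.27, adjusted p = 0.0362) and at D10 (log2 0.96 ± 0.28, adjusted p = 0.0129), with overlapping groups at both times.

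Several Ssr2 calls depended on the libraries used. The ICM fall was lost with the 2 zona litters of E4 removed (adjusted p = 0.0679) and the TE fall after thinning (adjusted p = 0.0854). The D10 difference was lost without D10 ICM replicate 4 (adjusted p = 0.0742). The E4 difference was lost in 11 of 30 alternatives (adjusted p up to 0.164), among them leaving out E4 ICM library 1, 3 or 5, E4 TE library 1, 2, 3 or 4, or D10 ICM library 1 or 3.

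Ssr3, the gamma subunit, fell in TE. It was at 144, 248.9, 151, 207 and 351 CPM in E4 TE, highest in replicate 5, and at 78.5, 116, 120.4, 96.1 and 98.3 CPM in D10 TE, all below E4. The change was -1.08 ± 0.23 (adjusted p = 0.00114), called in all 29 alternatives. In ICM its level was 127, 141, 92.7, 172 and 125 CPM at E4 and 85.6, 119, 127, 103 and 107 CPM at D10, a change of -0.28 ± 0.24 (adjusted p = 0.413). At E4 it was lower in ICM than in TE (log2 -0.71 ± 0.23, adjusted p = 0.02), and that call was lost in 5 of 30 alternatives (adjusted p up to 0.0735), 2 of them leaving out E4 ICM library 3 or E4 TE library 5.

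Ssr1, the alpha subunit, was higher in ICM at D10. It was at 223, 175, 172, 220.4 and 190.4 CPM in D10 ICM and 142, 141, 90.3, 164 and 139 CPM in D10 TE, with no overlap and a difference of 0.54 ± 0.18 (adjusted p = 0.0283). The call was lost in 6 of 29 alternatives (adjusted p up to 0.383), among them leaving out D10 ICM library 1 or 4 or D10 TE library 3. Its change in TE was -0.49 ± 0.18 (adjusted p = 0.052), called in 9 of 29 alternatives (adjusted p down to 0.0358), and its interaction was 0.86 ± 0.26 (adjusted p = 0.0514), called in 11 of 29 (adjusted p down to 0.0265). Of those, 7 TE calls came from omitting a single library (ICM 1 or TE 4 of E4, ICM 1, 3, 4 or 5 or TE 4 of D10), as did 7 interaction calls (ICM 1 or TE 1 or 4 of E4, ICM 2, 3 or 5 or TE 4 of D10). Ssr4, the delta subunit, passed in no comparison, with means of 232 ± 54.0 CPM in E4 TE and 275 ± 98.9 CPM in D10 TE.

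Signal peptidase has 2 alternative catalytic subunits, Sec11a and Sec11c, and among its 5 members only Sec11c passed in a comparison. Sec11c was at 127, 108, 94.9, 145 and 71.6 CPM in E4 TE and 51.1, 42.8, 74.2, 57.7 and 82.0 CPM in D10 TE, and fell (log2 -0.86 ± 0.24, adjusted p = 0.0118), with E4 replicate 5 inside the D10 range. In E4 ICM it was at 57.1, 57.5, 64.9, 66.2 and 60.2 CPM, below every E4 TE library, a difference of -0.85 ± 0.25 (adjusted p = 0.0116). The TE call was lost without the zona litters (adjusted p = 0.0543) or without E4 TE replicate 4 (adjusted p = 0.0518), and the E4 call without the zona litters (adjusted p = 0.0981) or after thinning (adjusted p = 0.0604). Sec11a was -0.34 ± 0.20 (adjusted p = 0.238) in TE and 0.50 ± 0.20 (adjusted p = 0.069) between the tissues at D10, and reads of its 3′ end may be shared with Nmb, annotated there on the same strand. The accessory subunits Spcs1, Spcs2 and Spcs3 passed in no comparison.

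Oligosaccharyl transferase had 3 of 7 members that fell in TE, where 9.89% of all genes fell, and 1 of 7 that rose in ICM (14.3%), near the 13.7% of all genes. Stt3a, the catalytic subunit of the form that works at the translocon, was at 104, 154, 119, 102 and 143 CPM in E4 TE and 67.5, 69.3, 62.2, 80.4 and 57.4 CPM in D10 TE. The groups did not overlap, and it fell (log2 -0.86 ± 0.19, adjusted p = 0.00189), a call lost after thinning (adjusted p = 0.109). In ICM it was at 108, 109.7, 158, 124 and 138 CPM at E4 and 90.3, 107, 77.6, 89.2 and 97.5 CPM at D10, a change of -0.46 ± 0.19 (adjusted p = 0.0796). Its paralog Stt3b, the catalytic subunit of the other form, changed by -0.31 ± 0.21 (adjusted p = 0.317) in TE and 0.24 ± 0.21 (adjusted p = 0.455) in ICM, so neither change passed.

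Ostc, a subunit of the Stt3a form, and Ddost, a shared subunit, also fell in TE. Ostc had a mean of 244 ± 62.1 CPM in E4 TE and 149 ± 35.2 CPM in D10 TE, a change of -0.69 ± 0.23 (adjusted p = 0.0318), and Ddost had 146 ± 44.2 CPM and 87.4 ± 22.8 CPM, a change of -0.71 ± 0.26 (adjusted p = 0.0478). Ddost was also higher in ICM than in TE at D10 (log2 0.77 ± 0.25, adjusted p = 0.0242). The Ostc call was lost in 6 of 29 alternatives (adjusted p up to 0.0844), 4 of them leaving out E4 TE library 1 or 5 or D10 TE library 1 or 3. The Ddost fall was lost in 13 of 29 (adjusted p up to 0.353), among them leaving out E4 ICM library 5, E4 TE library 1, 2 or 3, D10 ICM library 2 or D10 TE library 2, 3, 4 or 5. The Ddost difference at D10 was lost in 4 of 29 (adjusted p up to 0.287), 3 of them leaving out D10 ICM library 4 or D10 TE library 3 or 4.

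Dad1, a small shared subunit (ENSMUSG00000022174, chr14:54235479-54254104), went the other way. It was at 418, 277, 334, 275 and 314 CPM in E4 ICM and 485, 644, 598, 644 and 339 CPM in D10 ICM, where replicate 5 met the E4 range, and rose (log2 0.76 ± 0.18, adjusted p = 0.00368), a call made in all 29 alternatives. In TE it was 0.19 ± 0.18 (adjusted p = 0.487), and the interaction was 0.57 ± 0.26 (adjusted p = 0.219). The ribophorins Rpn1 and Rpn2, which lie next to the ribosome, passed in no comparison, though Rpn1 in ICM, at 0.55 ± 0.21 (adjusted p = 0.0605), passed in 9 of 29 alternatives, among them leaving out E4 ICM library 3, D10 ICM library 5, or D10 TE library 2 or 5 (adjusted p down to 0.0289). All 7 members of the complex had positive differences between ICM and TE at D10, from 0.36 to 0.77 on the log2 scale, of which 1 passed.

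Several folding genes are known targets of the unfolded protein response, so the members' upstream sequence was searched for its elements. RefSeq promoters (GRCm38.p6), from 250 bases before to 50 bases after the start, were found for 35 of 46 members. On both strands, the search used ERSE (CCAAT, 9 bases of any kind, then CCACG), ERSE-II (ATTGG, 1 base of any kind, then CCACG) and the core of UPRE (TGACGTG). ERSE was found in 3 of 35 members (8.57%), Calr, Canx and Pdia6, and in 0.137% of all 27025 genes with a promoter. The UPRE core was found in 2 (5.71%), Kdelr3 and Srpr, and in 2.22% of all genes, and ERSE-II in 0, against 0.0444%. Matches in the members did not overlap one another. Among 22 other ER chaperone and unfolded protein response genes with a promoter, 6 held ERSE (27.3%).

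The sequences of Calr, Canx and Pdia6 are shown because these 3 folding members hold ERSE, and that of Kdelr3 because it differed most between the tissues at D10. Each runs 5′ to 3′ on the strand of the gene, stops before the first annotated base of the gene, and has the matched element in capitals, read on the other strand for Calr and Kdelr3.
Calr, chr8:84846935-84847181, minus strand: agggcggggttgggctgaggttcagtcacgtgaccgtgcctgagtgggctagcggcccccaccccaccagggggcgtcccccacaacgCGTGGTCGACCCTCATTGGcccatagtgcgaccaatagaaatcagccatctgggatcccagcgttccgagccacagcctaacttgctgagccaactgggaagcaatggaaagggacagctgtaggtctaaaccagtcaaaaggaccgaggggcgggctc
Canx, chr11:50325674-50325923, minus strand: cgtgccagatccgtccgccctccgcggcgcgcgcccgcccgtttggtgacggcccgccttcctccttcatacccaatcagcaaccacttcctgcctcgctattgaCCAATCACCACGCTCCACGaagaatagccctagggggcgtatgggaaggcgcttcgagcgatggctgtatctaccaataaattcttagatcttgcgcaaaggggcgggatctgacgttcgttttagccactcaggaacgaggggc
Pdia6, chr12:17266339-17266544, plus strand: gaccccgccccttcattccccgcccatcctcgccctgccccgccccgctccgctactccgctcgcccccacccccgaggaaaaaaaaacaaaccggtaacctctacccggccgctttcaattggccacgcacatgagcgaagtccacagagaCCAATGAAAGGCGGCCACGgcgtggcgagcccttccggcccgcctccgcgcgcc
Kdelr3, chr15:79516158-79516407, plus strand: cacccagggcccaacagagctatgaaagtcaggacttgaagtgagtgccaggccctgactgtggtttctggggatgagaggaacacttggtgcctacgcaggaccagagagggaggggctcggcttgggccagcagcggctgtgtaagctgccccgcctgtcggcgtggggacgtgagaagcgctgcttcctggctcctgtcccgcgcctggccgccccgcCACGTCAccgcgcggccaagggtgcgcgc
Of the 3 with ERSE, only Pdia6 passed the test between the tissues at D10 or in any other comparison here. A match is a description of letters and not a binding site.

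The disulfide enzymes held the member with the largest change over time. Ero1l, the oxidase that passes oxidizing power to the disulfide isomerases (ENSMUSG00000021831, chr14:45283087-45318771), was at 12.7, 10.5, 4.63, 12.4 and 12.9 CPM in E4 ICM and 76.1, 33.0, 38.8, 54.6 and 32.5 CPM in D10 ICM, from 17 and 102 counts in all. The groups did not overlap, and it rose (log2 2.17 ± 0.44, adjusted p = 0.000818), in all alternatives that tested it. In TE it was at 11.5, 24.9, 9.74, 12.0 and 0 CPM at E4 and 36.5, 55.1, 16.1, 36.7 and 27.3 CPM at D10 and rose (log2 1.47 ± 0.44, adjusted p = 0.0163), with E4 replicate 2 inside the D10 range. The TE call was lost without D10 TE replicate 2 (adjusted p = 0.0589). Its interaction was 0.70 ± 0.64 (adjusted p = 0.605), and at neither time did the tissues differ by the test.

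Pdia6, a protein disulfide isomerase (ENSMUSG00000020571, chr12:17266545-17284770), separated the tissues at D10. It was at 551, 582, 388, 393 and 632 CPM in D10 ICM and 246, 241, 245, 204 and 134 CPM in D10 TE, with every ICM library above every TE library. The difference was 1.24 ± 0.27 (adjusted p = 0.00122), called in all 29 alternatives. At E4 the levels were 241, 191, 475, 440.4 and 202 CPM in ICM and 311, 290.3, 331, 484 and 172 CPM in TE, a difference of -0.04 ± 0.27 (adjusted p = 0.923). Over time it was 0.69 ± 0.27 (adjusted p = 0.0643) in ICM and -0.59 ± 0.27 (adjusted p = 0.127) in TE, with an interaction of 1.29 ± 0.39 (adjusted p = 0.0514). The ICM change passed in 9 of 29 alternatives (adjusted p down to 0.0212), among them leaving out E4 ICM library 3 or 4, E4 TE library 4 or 5, or D10 TE library 5. The interaction passed in 12 of 29 alternatives (adjusted p 0.0122 to 0.049), which were RLE size factors, no filter, a minimum count of 30, DESeq2, limma voom, the litter as a block, and leaving out E4 ICM library 3 or 4, E4 TE library 2 or 5, or D10 ICM library 3 or 4.

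P4hb, the founding member of the isomerase family, fell in TE. It was at 339.5, 344, 353, 460.2 and 351 CPM in E4 TE and 303, 182, 173, 213 and 221 CPM in D10 TE, with no overlap, and its change was -0.76 ± 0.24 (adjusted p = 0.0215) there and 0.12 ± 0.24 (adjusted p = 0.756) in ICM. The fall was lost in 4 of 29 alternatives (adjusted p up to 0.0798), 3 of them leaving out E4 TE library 4 or D10 TE library 2 or 3. Pdia3, the isomerase that works with the lectin chaperones, was 0.63 ± 0.26 (adjusted p = 0.0831) in ICM and 0.14 ± 0.26 (adjusted p = 0.758) in TE. Pdia4 had 23 to 44 counts per group and passed in no comparison.

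The lectin chaperones Calr and Canx, which hold glycoproteins while they fold, passed in no comparison. Calr was at 723, 381, 973, 984 and 430 CPM in E4 ICM, 803, 783, 421, 812 and 469 CPM in D10 ICM, 639, 622, 957, 976 and 579.5 CPM in E4 TE and 560.3, 412, 646, 636 and 590.1 CPM in D10 TE, so the groups overlapped widely. Canx means were 529 ± 43.5 CPM in E4 ICM, 579 ± 121 CPM in D10 ICM, 587 ± 59.4 CPM in E4 TE and 482 ± 109 CPM in D10 TE. Their change in TE was -0.42 ± 0.26 (adjusted p = 0.273) for Calr and -0.28 ± 0.18 (adjusted p = 0.294) for Canx.

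Manf and Sdf2l1, small ER proteins that accompany the chaperone Hspa5, were higher in ICM at D10. Manf (ENSMUSG00000032575, chr9:106838312-106891979) was at 266, 437, 205, 363 and 329.7 CPM in D10 ICM and 162, 114, 195, 187 and 150.2 CPM in D10 TE, with no overlap and a difference of 1.00 ± 0.29 (adjusted p = 0.0115), called in all 29 alternatives. At E4 it was at 146, 131, 315, 399 and 176 CPM in ICM and at a mean of 171 ± 63.0 CPM in TE, a difference of 0.47 ± 0.30 (adjusted p = 0.251). Sdf2l1 was at 38.0, 84.1, 44.3, 67.2 and 102 CPM in D10 ICM and 20.1, 26.5, 22.1, 28.0 and 27.3 CPM in D10 TE, again with no overlap, and differed (log2 1.46 ± 0.34, adjusted p = 0.00226), a call lost after thinning (adjusted p = 0.199). Its E4 difference was 0.91 ± 0.37 (adjusted p = 0.0604), and passed with the litter as a block (adjusted p = 0.0192). Sel1l, an adaptor of the ubiquitin ligase that clears misfolded ER proteins, passed in no comparison.

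**Figure D4:**
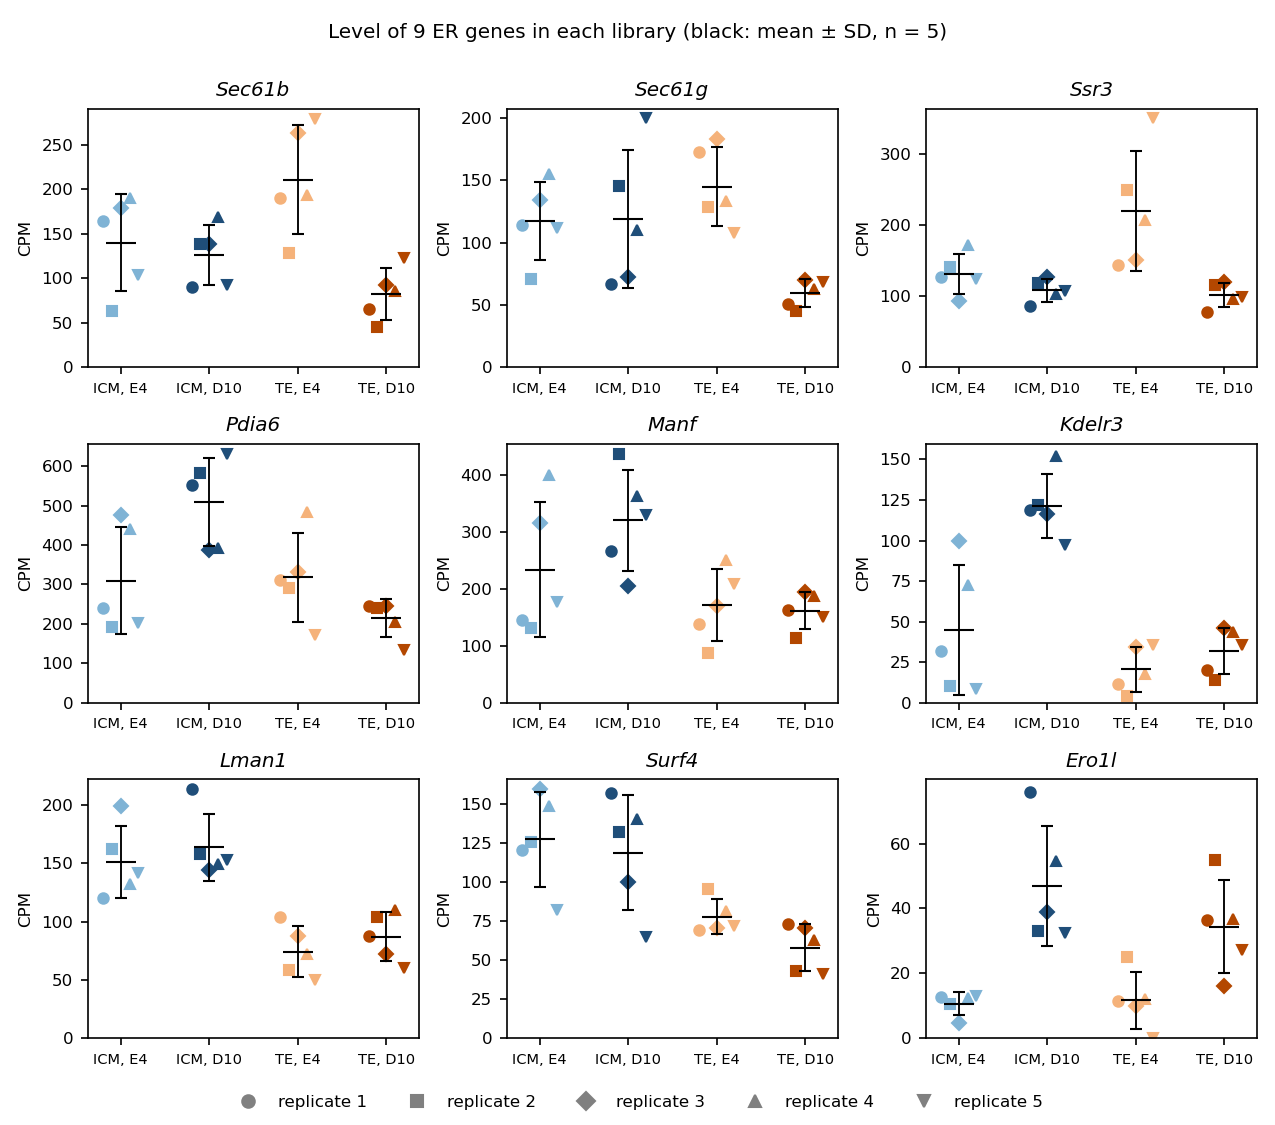
CPM (vertical axis, from 0) of 9 members in each library of the 4 groups, with a marker shape per replicate and the black bar giving mean ± SD over 5 libraries. Sec61b, Sec61g and Ssr3 drop in TE at D10, Pdia6, Manf and Kdelr3 lie apart between ICM and TE at D10, Lman1 separates the tissues at both times, and Ero1l is higher at D10 in both tissues.

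Of the 6 retrieval and exit receptors, 4 were higher in ICM than in TE at D10, where 12.9% of all genes were. Kdelr3, 1 of 3 KDEL receptors (ENSMUSG00000010830, chr15:79516411-79527739), was at 119, 122, 116, 152 and 97.5 CPM in D10 ICM and 20.1, 14.3, 46.1, 43.7 and 35.5 CPM in D10 TE, with no overlap. The difference was 1.94 ± 0.43 (adjusted p = 0.00132), called in all 29 alternatives. In E4 ICM its libraries spread widely, at 31.7, 10.5, 99.6, 72.4 and 8.60 CPM, and in E4 TE it was at 11.5, 4.15, 34.1, 17.9 and 35.8 CPM, a difference of 1.20 ± 0.53 (adjusted p = 0.0866) that passed with the litter as a block (adjusted p = 0.0272). It rose in ICM (log2 1.34 ± 0.43, adjusted p = 0.0238), with E4 replicate 3 inside the D10 range. That call was lost in 6 of 29 alternatives (adjusted p up to 0.125), 3 of them leaving out E4 ICM library 2 or 5 or D10 ICM library 4.

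The other KDEL receptors gave smaller values. Kdelr2 had a mean of 143 ± 41.4 CPM in D10 ICM and 94.0 ± 19.7 CPM in D10 TE, a difference of 0.64 ± 0.23 (adjusted p = 0.0456). The call was close to the threshold and was lost in 17 of 29 alternatives (adjusted p 0.0501 to 0.301), among them leaving out E4 ICM library 4 or 5, E4 TE library 2 or 4, any of D10 ICM libraries 1 to 4, or D10 TE library 1, 2, 3 or 5. The fall of Kdelr2 in TE did not pass, but was called in 11 of 29 alternatives (adjusted p down to 0.0257). Kdelr1, with means of 73.6 ± 29.1 CPM and 70.2 ± 9.03 CPM, passed in no comparison.

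Lman1 and Surf4 carry selected cargo out of the ER, and both were higher in ICM at both times. Lman1, a lectin receptor also called ERGIC-53 (ENSMUSG00000041891, chr18:65980738-66022580), was at 121, 162, 199, 132 and 142 CPM in E4 ICM and 104, 58.1, 87.6, 71.7 and 50.1 CPM in E4 TE. At D10 it was at 214, 158, 144, 149 and 153 CPM in ICM and 87.6, 104, 72.2, 110.1 and 60.1 CPM in TE. The tissues did not overlap at either time, and the differences were 1.03 ± 0.23 (adjusted p = 0.00122) at E4 and 0.90 ± 0.21 (adjusted p = 0.00257) at D10, both called in every alternative. Its interaction was -0.13 ± 0.31 (adjusted p = 0.878).

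Surf4 was at 121, 125, 159.8, 149 and 81.7 CPM in E4 ICM and 69.1, 95.4, 70.6, 81.7 and 71.6 CPM in E4 TE, and at 157, 132, 99.7, 141 and 65.0 CPM in D10 ICM and 73.0, 42.8, 70.2, 62.9 and 41.0 CPM in D10 TE. At each time ICM replicate 5 lay inside the TE range. The differences were 0.72 ± 0.25 (adjusted p = 0.026) at E4 and 1.05 ± 0.24 (adjusted p = 0.00169) at D10. The D10 call held in all 29 alternatives, while that at E4 was lost in 9 of 30 (adjusted p up to 0.1), among them leaving out E4 ICM library 2, 3 or 4 or E4 TE library 1, 3, 4 or 5. Lman2, another lectin receptor, was at 311, 436, 207, 331 and 293 CPM in E4 TE and 188, 239, 169, 190.4 and 145 CPM in D10 TE, with E4 replicate 3 inside the D10 range, and fell (log2 -0.75 ± 0.20, adjusted p = 0.00743). Its call was lost without the zona litters (adjusted p = 0.0869).

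Several of these genes meet a gene of the opposite strand at their 3′ end, where the reads lie. The annotated overlap is 4 bases for Kdelr3 with Ddx17, 50 for Pdia6 with Atp6v1c2, 144 for Surf4 with Surf2 and 42681 for Manf with Dcaf1. At D10 the mean of Ddx17 was 162 CPM in ICM and 168 CPM in TE, that of Dcaf1 26.3 and 30.8 CPM, that of Surf2 3.80 and 6.47 CPM, and that of Atp6v1c2 0.33 and 0 CPM. These means do not show to which gene of a pair the reads of an overlap were assigned, and the part of such reads in the differences was not tested. Whether reads of these pairs were separated is not given in the sources used here.

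The folding members varied together among the E4 ICM libraries, in a pattern that other members shared in part. Replicates 3 and 4 were the 2 highest of the 5 libraries for 7 of 10 folding members (70.0%), while the same held for 4 of 22 entry members (18.2%), 1 of 7 oligosaccharyl transferase members (14.3%), 2 of 6 retrieval and exit members (33.3%) and 13.0% of all genes tested. Of 17 other ER chaperone and unfolded protein response genes it held for 11 (64.7%). Every other pair of E4 ICM libraries led for at most 1 of the 10. In E4 TE no pair led for more than 3 of the 10, but replicate 4 was among the 2 highest libraries for all 10 folding members and for 13 of 17 chaperone and response genes (76.5%), beside 39.2% of all genes tested. In E4 ICM replicate 4 was among the 2 highest for 9 of the 10, beside 39.0% of all genes tested, 40.9% of entry, 42.9% of transferase and 33.3% of retrieval and exit members. Replicate 3 of E4 ICM was among the 2 highest for 7 of the 10, beside 41.8% of all genes tested. It was so too for all 6 retrieval and exit members, 5 of 7 transferase members and 12 of 22 entry members (54.5%). A high replicate 3 was therefore not particular to the folding members. Other roles had such a library at D10. In D10 TE replicate 2 was among the 2 highest for all 7 transferase members, beside 38.7% of all genes tested. In D10 ICM replicate 2 was so for 5 of 6 retrieval and exit members, beside 38.6% of all genes tested. Replicate 4 of both E4 tissues comes from litter N. It was also the deepest E4 library of each tissue, with 438906 counts in ICM and 506584 in TE. Its share of mitochondrial counts was the lowest in each, 8.35% in ICM and 8.025% in TE. Of the 3 folding members with ERSE, Calr and Pdia6 were highest in E4 ICM replicates 3 and 4, and Canx in replicates 4 and 5. This pattern was chosen after the values were seen, and no test was made of it.

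Replicates 3 and 4 of E4 ICM differ from the others in further ways. They come from litters M and N, whose embryos had no zona, as those of litter O, the source of replicate 5, also had none. They are the deepest E4 ICM libraries, with 403723 and 438906 counts against 159215 to 342278 in the other 3. At 8.68% and 8.35%, against 9.72% to 15.1%, these libraries had the lowest shares of mitochondrial counts in E4 ICM. They also had the highest sums of primitive endoderm markers, 4200 and 3170 CPM against 1896 to 2464 CPM, and of primitive endoderm cargo, 6775 and 5548 CPM against 2530 to 3247 CPM. Of the markers, Sparc, Lama1, Dab2 and Cubn were highest in these libraries. Gata6 was lowest in them, at 287 and 306 CPM against 348.7 to 433.6 CPM, and Gata4, Sox17 and Pdgfra did neither. The part of litter, depth, mitochondrial share or primitive endoderm content in the pattern was not tested.

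**Figure D5:**
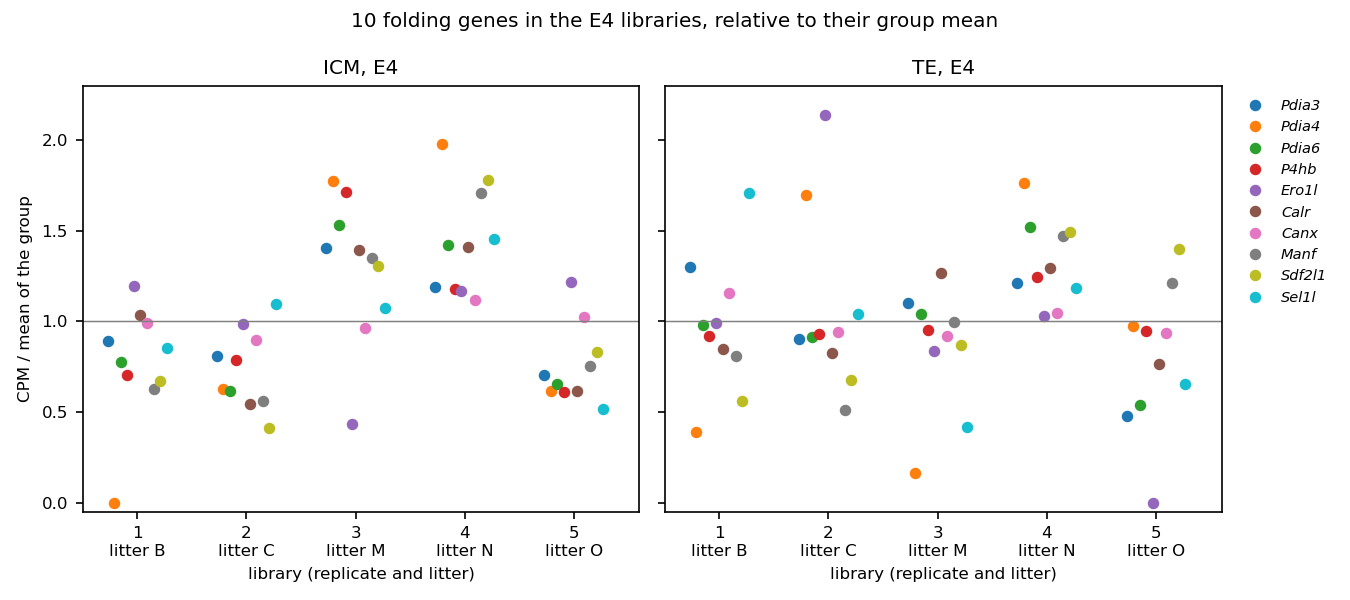
CPM of each of 10 folding members divided by the mean of its group (vertical axis) in the 5 E4 libraries of ICM (left) and TE (right), labelled by replicate and litter. In ICM most points of replicates 3 and 4 lie above 1 and most of replicates 1, 2 and 5 below it; Ero1l in replicate 3 is an exception.

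Genes of neighbouring steps were counted from lists beside the members, and these counts are to be read against all genes tested: 13.7% rose and 9.97% fell in ICM, 11.9% rose and 9.89% fell in TE, and 12.9% were higher and 12.6% lower in ICM than in TE at D10. Of 17 tested genes for ER chaperones and the unfolded protein response, 2 rose and 0 fell in ICM, 2 rose and 2 fell in TE, and 2 were higher and 1 lower in ICM than in TE at D10. Xbp1, the transcription factor of the response, rose in ICM (log2 1.37 ± 0.36, adjusted p = 0.00654), was higher in ICM at D10 (log2 1.08 ± 0.34, adjusted p = 0.0189), and had an interaction of 1.86 ± 0.50 (adjusted p = 0.027). Eif2ak3, a sensor kinase of the ER membrane, rose in TE (log2 3.39 ± 0.42, adjusted p = 2.09e-06) and in ICM (log2 2.21 ± 0.46, adjusted p = 0.00112) and was lower in ICM than in TE at D10 (log2 -2.23 ± 0.38, adjusted p = 7.03e-05). Hsp90b1, an ER chaperone of the Hsp90 family, fell in TE (log2 -1.14 ± 0.30, adjusted p = 0.00765), and Creld2, a folding factor, was higher in ICM at D10 (log2 0.94 ± 0.28, adjusted p = 0.0129).

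Other folding enzymes and glycan steps were mixed. Of 12 further folding and glycan-trimming genes, 1 fell and 2 rose in TE, and Pdia5, another disulfide isomerase, fell there (log2 -1.84 ± 0.36, adjusted p = 0.000545) and was higher in ICM at D10 (log2 2.23 ± 0.34, adjusted p = 2.15e-05). Of 15 further oligosaccharyl transferase and glycan precursor genes, 4 fell and 3 rose in TE, and 1 fell and 1 rose in ICM. Krtcap2, a subunit of the Stt3a form of the transferase, rose in ICM (log2 1.83 ± 0.24, adjusted p = 1.05e-05) and in TE (log2 0.73 ± 0.23, adjusted p = 0.0241), while Stt3a and Ostc of the same form fell in TE.

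Of the coats that carry vesicles, the 9 tested COPII genes, for export, had 1 that rose and 2 that fell in ICM and 1 that rose in TE. Of 15 tested genes for the COPI coat and its p24 carriers, which return proteins to the ER, 4 fell and 1 rose in TE, against 9.89% and 11.9% of all genes. Cope, the epsilon subunit of COPI, rose in ICM (log2 1.17 ± 0.22, adjusted p = 0.000394) and had an interaction of 1.42 ± 0.31 (adjusted p = 0.00663). Of 13 genes for membrane insertion by other routes, 1 fell in each tissue, a share close to that of all genes.

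Of 15 tested genes for primitive endoderm cargo and its collagen enzymes, 13 were higher in ICM than in TE at E4 (15.8% of all genes were) and 13 at D10 (12.9%), and 6 rose in ICM. Sparc, a collagen-binding matrix protein, was at 4088, 6000, 3889, 6041 and 3469 CPM in D10 ICM and 181, 8.16, 64.2, 52.4 and 24.6 CPM in D10 TE, a difference of 6.12 ± 0.55 (adjusted p = 1.58e-08). The difference in the ER members at D10 stood beside one in a cargo list and in the sum of primitive endoderm markers. Of those markers, Gata6 and Dab2 did not pass between the tissues at D10. The part of primitive endoderm content in the difference of the ER members was not tested.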

How the data were processed

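Whole-transcript 3′ ends were read by BRB-seq, which tags each sample with a barcode before mixing. The authors deposited 1 table of raw counts per gene for the 20 libraries, and every column was used. Builds GRCm38 and GRCh38 appear in the submitters' processing notes, with the tools featureCounts 2.0.1, HISAT2 2.2.1, UMI-tools and Trim Galore 0.6.7, in no stated order. Not given in the sources used here: whether counts are of molecules or reads, the use of strand, and the annotation. Coordinates are from GENCODE M21 (GRCm38).

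The counts were tested with edgeR 4.0.16 (quasi-likelihood, TMM scaling, R 4.3.3) in 1 fit of the 4 groups without litter, after a filter for low counts at a minimum count of 10 that left 6943 genes. Adjusted p-values are Benjamini-Hochberg over those genes. Alternatives used DESeq2 1.42.0, limma 3.58.1, other scaling and filters, thinning to 144276 counts, the litter as a block, no zona litters, and each library left out in turn. ICM and TE libraries share litters, per the deposited barcode list, and the mean correlation of same-litter deviations from their group means was 0.177 at E4 (0.104 to 0.263) and 0.168 at D10 (-0.03 to 0.29). Tables were handled with Python 3.11.15 and pandas 2.3.3 and drawn with matplotlib 3.10.9, and scripts were tested on simulated counts. Values per library are given for most members that passed in a comparison, by smallest adjusted p within role, and for members of a role that went another way. Ostc, Ddost and Kdelr2 also passed but are given as mean ± SD. From each other list, up to 3 genes per comparison are named by adjusted p. The members and lists were chosen with earlier results of these data known.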

Additional observations from a re-analysis of the deposited data

Results flagged for a closer look

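In 11 of the 180 sets of 5 replicates checked (45 members in 4 groups), 1 library lay far from the other 4, by a gap over 0.71 of the range (Dixon's criterion), and chance gives about 1 in 20 such sets. In entry genes, Srpr was at 143.9 CPM in E4 TE replicate 1, with the others at 28.6 to 61.8 CPM. Sec61a1 was at 5.46 CPM in D10 TE replicate 5, below 14.04 to 15.72 CPM in the others, and Sec63 was at 57.1 CPM in E4 ICM replicate 1, below 99.3 to 111 CPM. Ssr2 was at 67.3 CPM in D10 TE replicate 2, above 25.5 to 32.8 CPM. Spcs1 was at 235 CPM in E4 ICM replicate 1, above 146 to 157 CPM, and Spcs2 was at 178 CPM in E4 TE replicate 1, below 219 to 229 CPM.

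Among glycosylation genes, Rpn2 was at 246 CPM in D10 TE replicate 5, below 353 to 392 CPM, Ddost at 188 CPM in E4 ICM replicate 3, above 154 to 159 CPM, and Stt3b at 124 CPM in E4 TE replicate 3, below 203 to 229 CPM. P4hb was at 460.2 CPM in E4 TE replicate 4, above 339.5 to 353 CPM, and Lman1 at 214 CPM in D10 ICM replicate 1, above 144 to 158 CPM. Of the 11, 4 were in replicate 1 of E4, in ICM or TE, from litter B. These libraries were also shallow, with 159215 counts in ICM, the fewest there, and 181188 in TE. The part of depth or litter was not tested.

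The change of Sec61g over time differed between ICM and TE by the interaction test of edgeR, by 1.32 on the log2 scale (adjusted p = 0.0376), and this did not pass in 11 of 29 alternatives.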

How the results depend on the processing

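No result reversed. Calls made in every alternative that tested the gene were Dad1 and Ero1l over time in ICM, Srp19, Sec61b, Sec61g and Ssr3 in TE, Lman1 at E4, and Pdia6, Manf, Kdelr3, Lman1 and Surf4 at D10. Ero1l was not tested after thinning or at a minimum count of 30, so its missing rise in TE there is not a lost call. Members with no call were called in at least 1 alternative in 5 cases over time in ICM, 4 in TE, 5 at E4, 8 at D10 and 4 in the interaction. The counts of members moved as follows, and apart from the missing test of Ero1l the cause was not tested. Thinned to the smallest total, 1 member fell in ICM in place of 2, 1 rose and 7 fell in TE in place of 2 and 11, 1 was lower in ICM at E4 in place of 2, 6 were higher at D10 in place of 11, and 0 had an interaction. With the zona litters of E4 removed, 2 rose and 0 fell in ICM, 1 rose and 7 fell in TE, 1 was higher and 0 lower at E4, and 0 had an interaction. Scaled by total counts, which moved the median of all genes by -0.20 over time in ICM, 0.16 at E4 and -0.15 in the interaction, 2 rose in ICM, 6 were higher and 1 lower at E4, and 0 had an interaction. With no filter, 1 was lower at E4 and 3 had an interaction, and with a minimum count of 30, 1 rose in TE and 3 had an interaction. RLE size factors, DESeq2 and limma voom gave 3 interactions each.

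With the litter as a replicate block, 5 members were higher at E4 in place of 3, adding Sdf2l1 and Kdelr3, and 4 had an interaction in place of 1. At D10 the block added Sec11a, Ostc and P4hb (adjusted p 0.0364 to 0.047) and lost Kdelr2 (adjusted p = 0.0519). Leaving out 1 library gave 3 to 7 rises and 1 to 3 falls in ICM (7 without E4 ICM replicate 3, adding Rpn1, Pdia3 and Pdia6), 0 to 2 rises (0 without D10 TE replicate 2) and 9 to 14 falls in TE, 1 to 4 higher and 1 to 2 lower at E4, 7 to 13 higher at D10 (7 without D10 ICM replicate 4), and 0 to 3 interactions.

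Depth limits Srp54a, Sec61a1, Pdia4 and Ero1l most, and in E4 TE 1 library had 0 counts of Ero1l.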

Other observations

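Other ER genes moved in both directions. Tmed3, a p24 cargo carrier, rose in ICM (log2 2.40) and in TE (log2 2.76), while Tmed2, of the same family, fell in TE (log2 -0.96). Alg13, which adds a sugar to the glycan precursor, fell in both tissues (log2 -1.88 in each) and was higher in ICM than in TE at both times (log2 1.79 in each). Alg3, a mannosyltransferase of the precursor, rose in TE (log2 1.44). P4ha2, which hydroxylates collagen, fell in TE (log2 -1.85), was higher in ICM at D10 (log2 1.85) and had an interaction of 2.03 (adjusted p = 0.0177 by edgeR).

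At E4, 3 of the 17 tested genes for ER chaperones and the unfolded protein response were lower in ICM than in TE. They were Dnajb9 (log2 -1.28), Edem1 (log2 -0.89) and Edem2 (log2 -0.88), a share near the 15.4% of all genes that were lower. Dnajc10, a disulfide reductase of the same list, was the 1 that was higher in ICM (adjusted p = 0.00207 by edgeR), against 15.8% of all genes. Among D10 ICM libraries, replicates 2 and 4, the deepest, were the 2 highest for 14 of 45 members (31.1%) and for 971 of 6943 genes tested. That pair was picked after its values were seen.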
